A study of Mus musculus with 36 samples.

Results

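B cells that carried C/EBPα R35A were compared with B cells that carried wild-type C/EBPα at 6 hr post induction (hpi). The comparison rests on 4 of the 36 RNA-seq libraries, 2 of each construct, which were taken by their construct and timepoint alone. C/EBPα drives the transdifferentiation of B cells into macrophages (BMT), and in the R35A construct alanine stands in place of arginine at position 35. The remaining libraries come from the same constructs and from R35K at 6 timepoints from 0 to 120 hpi, and those of wild type and R35A were used here to place the 6 hpi comparison in time.

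Both groups started from bone marrow B cells of C57BL/6J mice of both sexes, whose age was not given in the sources used here. The cells were infected with a retrovirus in which C/EBPα, wild type or R35A, is fused to the estrogen receptor hormone-binding part (ER) and is followed by human CD4 (hCD4) as a surface tag. Cells positive for hCD4 were plated on inactivated mouse embryonic fibroblast feeders with IL-7. For the conversion itself the study's methods also name IL-3, FLT-3, CSF-1, the ligand of the receptor that Csf1r encodes, and SCF, the ligand of Kit. Estradiol (E2), which brings the fusion protein into the nucleus, was given to both groups 6 hr before harvest. The study's methods describe feeder removal by adherence to culture dishes for a phagocytosis assay and name feeder depletion for ATAC-seq. For RNA-seq they name no such step. C/EBPα therefore came from a virus in these cells and not from its own locus alone, and the RNA is that of the whole harvested population.

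C/EBPα is a basic leucine zipper transcription factor of granulocyte and monocyte progenitors. Together with PU.1 it opens and activates macrophage genes, and in B cells its activity is followed by the shutdown of the B cell program that Pax5 and Ebf1 maintain. The conversion takes days, so that 6 hpi lies in its early phase, when both programs can be read in the same RNA.

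Total counts on genes were 14657990 and 15479769 in the wild-type libraries at 6 hpi and 16176886 and 20580185 in the R35A libraries. Of 40354 genes in the table, 16988 passed the filter on low counts and were tested. Levels are given as CPM, the counts scaled to a common library size after TMM normalization, per library in the order of the replicate numbers, and were not divided by gene length. A gene was called when its level differed by at least 1.5-fold and its p, adjusted by Benjamini-Hochberg in edgeR's quasi-likelihood test, did not exceed 0.05. Wild-type replicate 1 stood apart at 6 hpi. A set of 8 ribosomal and other structural RNA genes, put together after their values were seen, took up 1.32% of its counts, against 0.0887% in wild-type replicate 2 and 0.0884% and 0.0916% in the R35A libraries. The count of all genes called between the constructs at 6 hpi was also computed without this library, as were the counts by gene list at 6 hpi. The same holds for the counts of all genes whose difference between the constructs changed over time. Other counts of called genes that use this library, such as those of the change within wild-type cells, were not computed without it.

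Markers of the cell types that the cultures could hold were read in all 4 libraries. The 12 feeder fibroblast markers summed to 17483.3 and 18022.3 CPM in wild-type cells and to 14020.9 and 14089.2 CPM in R35A cells, so feeder RNA was present in every library and its summed level was lower with R35A. Of these 12 markers 3 were called lower (Acta2, Postn and Col1a1) and 2 higher (Lum and Dcn), with log2 fold changes from −0.82 to 1.43, where 7.52% of all genes tested were called lower and 6.2% higher. The part of feeder RNA in the differences below was not tested. The 8 neutrophil markers summed to between 1.7 and 2.1 CPM in all 4 libraries, the 5 NK cell markers to at most 0.5 CPM, the erythroid markers to at most 0.3 CPM and the 8 T cell markers to at most 8.1 CPM. The 5 dendritic cell markers summed to between 6.5 and 7.6 CPM. The sums of the 5 megakaryocyte markers (24.8 to 27.0 CPM against 129.4 and 130.9 CPM) and of the 5 mast cell and basophil markers (16.3 and 16.4 CPM against 31.5 and 32.7 CPM) were higher with R35A. These followed single genes, Pf4 in the first list and Mcpt8 in the second, and no other marker of the 2 lists was called higher.

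Before induction the constructs did not differ at this threshold. At 0 hpi 0 of the 16988 genes were called (0%), with 261 genes at the fold threshold and an unadjusted p of at most 0.05, and with 1 gene called by the DESeq2 Wald test (Mmp8). By adjusted p alone, without a fold threshold, 8 genes differed, all higher in R35A cells, and without R35A replicate 2 of 0 hpi 11 genes were called, all higher. Lyz2, the main macrophage lysozyme gene, stood at 36.5 and 37.6 CPM in the uninduced wild-type libraries and at 35.2 and 33.5 CPM in the uninduced R35A libraries, and Cd79a, a signalling chain of the B cell receptor, at 320.0 and 318 CPM and 291 and 284 CPM.

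The driver itself was read first. Cebpa stood at 93.4 and 87.4 CPM in wild-type cells and at 60.7 and 57.7 CPM in R35A cells at 6 hpi. The groups did not overlap and the level was 1.53-fold lower with R35A (log2 fold change −0.61, SE 0.058, adjusted p = 5.92e-13). Without wild-type replicate 1 the log2 fold change was −0.57, and it was also −0.57 without R35A replicate 2, just under the threshold. Reads of the viral C/EBPα and of the cells' own gene could not be told apart in these counts. Esr1, whose ER part may share sequence with the fusion construct and which was looked up after its value was seen, stood at 123 and 128 CPM in wild-type cells and 45.3 and 44.02 CPM in R35A cells (log2 fold change −1.49, SE 0.049, adjusted p = 1.49e-30). In uninduced cells the means of Esr1 were 62.2 CPM with wild type and 55.7 CPM with R35A. Both genes were therefore lower with R35A at 6 hpi, although they did not pass the test before induction. For Cebpa the difference in change from 0 to 6 hpi was not called, as for all 5 tested C/EBP family genes. Carm1, the arginine methyltransferase also known as PRMT4, stood at 65.6 and 68.3 CPM against 71.3 and 69.9 CPM and did not pass the test (log2 fold change 0.07, SE 0.059, adjusted p = 0.337).

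At 6 hpi 2331 of 16988 genes were called (13.7%), 1053 of them higher (6.2%) and 1278 lower (7.52%) in R35A than in wild-type cells. The median log2 fold change was 1.03 among the called higher genes and −0.99 among the called lower genes, and 0.00 over all genes tested. Of the called higher genes 550 differed at least 2-fold, 156 at least 4-fold and 37 at least 8-fold. Of the called lower genes 629 differed at least 2-fold, 72 at least 4-fold and 27 at least 8-fold. The libraries of the 2 groups did not overlap for 2323 of the 2331 called genes, and for 11742 of all 16988 genes tested (69.1%). Without wild-type replicate 1 the count of called genes was 2106, and by the DESeq2 Wald test it was 1983. In bulk RNA, fewer cells of a type and less RNA per cell cannot be told apart, which holds for every value that follows.

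**Figure D1:**
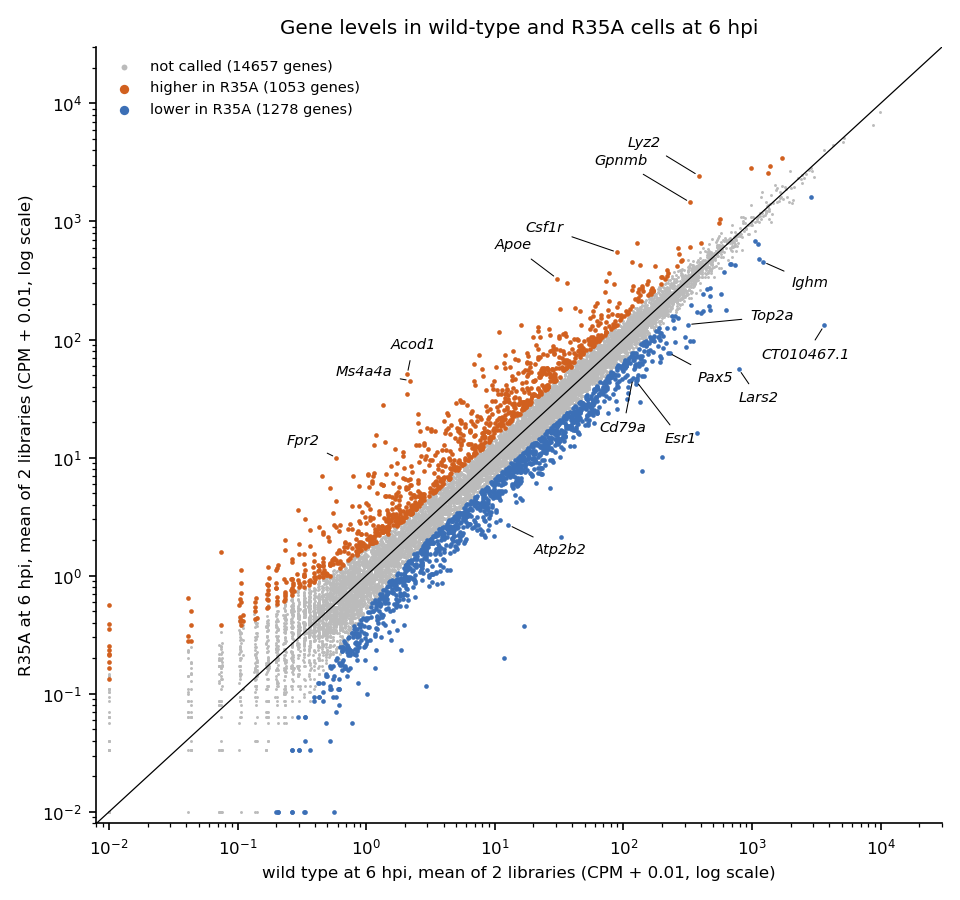
Mean level of each of the 16988 tested genes in wild-type cells (horizontal axis) and R35A cells (vertical axis) at 6 hpi, as CPM + 0.01 on log scales, each a mean of 2 libraries; the line marks equal levels. Orange points are the 1053 genes called higher with R35A and blue points the 1278 called lower; Acod1, Ms4a4a, Apoe, Csf1r and Lyz2 lie far above the line, and CT010467.1 and Lars2, which rest on wild-type replicate 1, lie far below it.

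Among genes of at least 5 CPM in one group, the 12 with the highest fold were Acod1, Ms4a4a, Ms4a14, Fpr2, Ms4a7, Fcrls, Aoah, Cxcl3, Apoe, Pf4, Creg2 and Cxcl2. Acod1, which encodes the enzyme that makes itaconate in activated macrophages, stood at 1.79 and 2.36 CPM in wild-type cells and 49.9 and 51.6 CPM in R35A cells. It was 24.4-fold higher with R35A (log2 fold change 4.6, SE 0.11, adjusted p = 3.21e-36), the highest of the 12. Its gene lies at chr14:103046977-103056573, plus strand (mm10).

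3 of the 12 belong to one family of tetraspan membrane proteins, the MS4A genes, some of which are known markers of tissue macrophages. Ms4a4a stood at 2.52 and 1.86 CPM against 45.2 and 44.5 CPM and Ms4a7 at 1.79 and 2.36 CPM against 34.9 and 34.9 CPM. Ms4a14 stood at 1.19 and 1.49 CPM against 29.4 and 25.9 CPM. The 3 genes were 20.5-fold, 16.8-fold and 20.6-fold higher with R35A, with log2 fold changes of 4.36 (SE 0.12), 4.06 (SE 0.12) and 4.34 (SE 0.16). They lie near each other on chromosome 19. Ms4a1, which encodes the B cell antigen CD20, is a member of the same family and stood at 2.12 and 2.05 CPM against 1.798 and 1.84 CPM with no call (log2 fold change −0.20, adjusted p = 0.572).

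The 12 also held secreted proteins and sensors. Apoe, which encodes the lipid carrier apolipoprotein E, stood at 31.2 and 29.7 CPM in wild-type cells and 333 and 324 CPM in R35A cells (log2 fold change 3.43, SE 0.05). Pf4, a CXC chemokine gene known from platelets and expressed by macrophages too, stood at 11.2 and 10.3 CPM against 115 and 117 CPM (log2 fold change 3.43, SE 0.064). Both were nearly level before induction, Apoe at 19.5 and 20.8 CPM and Pf4 at 2.11 and 2.33 CPM. Aoah, which encodes a hydrolase that detoxifies bacterial lipopolysaccharide, stood at 1.13 and 1.24 CPM against 14.98 and 16.2 CPM, and Fcrls, an Fc receptor-like gene known from microglia, at 0.265 and 0.621 CPM against 6.83 and 7.203 CPM. Creg2 stood at 0.5305 and 0.497 CPM against 5.15 and 5.89 CPM. The adjusted p of these 12 genes was at most 2.06e-15, which is that of Creg2.

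Promoter sequence was read for genes of these groups, since their levels moved together and C/EBPα and PU.1 are known to bind such promoters. 2 sets of letters were searched on both strands from 250 bases before to 50 bases after each start in the table, which can hold several starts for a gene, TTGCNNAA for C/EBP and GAGGAAG for PU.1. TTGCNNAA was in at least 1 window of 12.2% and GAGGAAG of 15.4% of the 27025 genes in the RefSeq promoter table (GRCm38.p6). All of the 12 highest genes had a window. Among them Pf4 and Aoah held the C/EBP letters, and Pf4, Fcrls and Cxcl2 the PU.1 letters. Of the 7 lowest genes with a window, Atp2b2 and Pydc3 (under the symbol Ifi208 in the table) held the C/EBP letters, and Atp2b2 and Dnajc6 the PU.1 letters. Of the genes that the study's results name, Itgam and Havcr2, both called higher, held the PU.1 letters. No match is reported for the others, among them Csf1r, Lyz2 and Cd14, which were called higher too. The share of holders among these genes was not compared with that of all genes. Stretches are printed for holders only, so they do not show how common a match was. 6 stretches are printed 5′ to 3′ on the strand of the gene, all upstream of the start, with the matched letters of either strand in capitals.
Pf4 (chr5:90772185-90772434, plus strand): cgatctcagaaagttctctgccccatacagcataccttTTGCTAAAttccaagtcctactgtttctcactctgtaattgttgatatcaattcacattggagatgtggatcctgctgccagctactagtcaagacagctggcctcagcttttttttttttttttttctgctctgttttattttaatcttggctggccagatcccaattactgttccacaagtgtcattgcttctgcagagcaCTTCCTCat
Aoah (chr13:20793863-20793982, plus strand): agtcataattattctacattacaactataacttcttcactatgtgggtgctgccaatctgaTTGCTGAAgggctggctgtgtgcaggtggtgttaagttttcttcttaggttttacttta
Fcrls (chr3:87263605-87263724, minus strand): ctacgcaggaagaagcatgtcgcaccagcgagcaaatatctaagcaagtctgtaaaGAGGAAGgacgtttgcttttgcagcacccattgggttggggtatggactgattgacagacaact
Itgam (chr7:128062520-128062639, plus strand): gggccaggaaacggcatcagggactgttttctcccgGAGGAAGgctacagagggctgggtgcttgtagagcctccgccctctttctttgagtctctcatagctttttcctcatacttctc
Havcr2 (chr11:46454811-46454930, plus strand): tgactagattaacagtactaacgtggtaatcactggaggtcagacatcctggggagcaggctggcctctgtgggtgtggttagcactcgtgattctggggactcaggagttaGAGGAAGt
Atp2b2 (chr6:113934782-113934931, minus strand): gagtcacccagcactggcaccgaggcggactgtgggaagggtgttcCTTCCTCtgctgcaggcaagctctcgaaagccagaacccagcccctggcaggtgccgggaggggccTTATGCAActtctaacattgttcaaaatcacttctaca
In Pf4 the C/EBP letters TTGCTAAA begin 212 bases before the start and the PU.1 letters, here on the opposite strand as CTTCCTC, 9 bases before it. In Aoah TTGCTGAA begins 189 bases before the start, in Fcrls GAGGAAG 144 bases, in Itgam 84 bases and in Havcr2 8 bases before it. Atp2b2 is shown beside them because it was called lower and held both sets of letters, CTTCCTC 204 bases and TTATGCAA 138 bases before the start. The table has 3 starts for Atp2b2, and this one lies inside the annotated gene, not at its outer end. A match says only that the letters are in the window. The share among all called genes was not compared, because only 73.7% of the called higher and 66.0% of the called lower genes had a window in the table.

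The macrophage lists were described next, in the order of regulators, receptors and effectors. Counts of called members in these and the later lists at 6 hpi stand against 6.2% higher and 7.52% lower over all genes tested. Spi1, which encodes PU.1, stood at 65.1 and 67.4 CPM in wild-type cells and 102 and 100.1 CPM in R35A cells (log2 fold change 0.61, SE 0.048, adjusted p = 1.86e-15), and without wild-type replicate 1 its log2 fold change was 0.58, just under the threshold. Its relatives went apart. Spic, known from red pulp macrophages, stood at 0.5305 and 0.621 CPM against 3.54 and 5.08 CPM (log2 fold change 2.91, SE 0.3), while Spib, known from B cells and plasmacytoid dendritic cells, stood at 34.7 and 35.7 CPM against 15.7 and 14.2 CPM (log2 fold change −1.24, SE 0.084). Of the 5 tested C/EBP family genes Cebpb was called higher, at 47.6 and 48.8 CPM against 77.3 and 77.5 CPM (log2 fold change 0.68, SE 0.076), and Cebpa lower.

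Of 20 macrophage transcription factors 10 were called higher and 3 lower, with a median log2 fold change of 0.67. Tfec, a relative of Mitf that is expressed in macrophages, stood at 1.66 and 1.68 CPM against 12.2 and 11.6 CPM (log2 fold change 2.82, SE 0.16). Nr1h3, which encodes the oxysterol receptor LXRα, stood at 1.13 and 0.621 CPM against 2.697 and 3.15 CPM (log2 fold change 1.76, SE 0.3). Maf (log2 fold change 1.31), Id2 (0.99), Irf5 (0.86), Pparg (0.73), Klf6 (0.71) and Mitf (0.63) were called with smaller differences. Batf2 was at or below 1 count in both wild-type libraries and at 7 counts in both R35A libraries, at least 1.95-fold higher against a floor of 3 counts per library, and it lost its call by the DESeq2 Wald test and without wild-type replicate 2. The called lower members were Gfi1, at 5.44 and 5.03 CPM against 1.798 and 2.17 CPM, Nr4a1 (log2 fold change −0.68) and Irf8 (−0.66). Gfi1 is a repressor of granulocyte and lymphoid progenitors, and Irf8 a regulator of monocytes and dendritic cells that B cells express too. Runx1 (log2 fold change −0.04, adjusted p = 0.484) and Zeb2 (−0.01, adjusted p = 0.869) did not pass the test.

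Of the 14 AP-1 and early response factors, which answer to growth factor and stress signals within minutes, 2 were called higher and 0 lower, with a median log2 fold change of 0.19. These were Atf3, at 126 and 120.17 CPM against 219 and 223 CPM, and Fos, at 106 and 111 CPM against 169 and 175 CPM. Junb (log2 fold change −0.02, adjusted p = 0.755) and Egr1 (−0.17, adjusted p = 4.23e-05) were not called, the latter because its difference was under 1.5-fold.

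Growth factor receptors showed large differences in both directions. Csf1r, the receptor for the macrophage growth factor M-CSF, stood at 92.4 and 87.2 CPM in wild-type cells and 547 and 548 CPM in R35A cells, 6.095-fold higher (log2 fold change 2.61, SE 0.037, adjusted p = 1.87e-46). Csf3r, the G-CSF receptor gene, stood at 0.995 and 0.559 CPM against 6.59 and 7.34 CPM (log2 fold change 3.17, SE 0.21), and Csf2rb2 at 64.7 and 68.8 CPM against 151 and 152 CPM. The receptors of early progenitors were lower, with Kit at 40.1 and 36.7 CPM against 13.1 and 11.8 CPM (log2 fold change −1.63, SE 0.085) and Flt3 at 4.97 and 5.41 CPM against 2.64 and 3.63 CPM (−0.71, SE 0.17). Of the 8 tested members 3 were thus called higher and 2 lower, with a median log2 fold change of 0.42, and without R35A replicate 1 there was 1 lower call.

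Integrins and adhesion molecules were mixed. Of 14 tested, 7 were called higher and 1 lower, with a median of 0.36. Itgam, which encodes CD11b, the α chain of Mac-1, stood at 17.6 and 18.14 CPM against 66.3 and 63.6 CPM, 3.64-fold higher (log2 fold change 1.86, SE 0.062, adjusted p = 1.91e-30). Its β chain gene Itgb2 stood at 73.8 and 77.9 CPM against 172 and 181 CPM (log2 fold change 1.22). Itgal, the α chain gene of LFA-1, stood at 43.6 and 44.6 CPM against 99.5 and 100.3 CPM. Itga4, the α4 integrin gene of lymphocytes, was the called lower member (without wild-type replicate 1 there were 2), at 146 and 145 CPM against 92.8 and 96.5 CPM. Itgb1 and Itgav, which fibroblasts express at high levels, were not called (log2 fold changes −0.12 and −0.17).

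Most receptors of phagocytes for antibodies and microbes were higher with R35A. Of 19 tested Fc and ITAM receptor genes 15 were called higher and 1 lower (Treml2), with a median log2 fold change of 1.68. Tyrobp, the adaptor that carries the ITAM for many of these receptors, stood at 41.8 and 41.6 CPM against 187 and 185 CPM (log2 fold change 2.16, SE 0.044), and its partner Trem2 at 8.82 and 7.08 CPM against 56.4 and 55.3 CPM (2.81, SE 0.089). Inhibitory receptors were among them, with Pirb at 11.7 and 12.4 CPM against 57.6 and 56.5 CPM and Siglece at 0.332 and 0.249 CPM against 1.38 and 1.65 CPM. Fcer1g (log2 fold change 1.92), Fcgr3 (1.68), Fcgr1 (2.03) and Sirpa (1.78) were called too, whereas Fcgr2b, the inhibitory Fc receptor that B cells express, was not (0.52, under the fold threshold).

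Of 24 tested microbial pattern receptors 17 were called higher and 0 lower, with a median log2 fold change of 1.52. Cd14, a coreceptor for lipopolysaccharide, stood at 13.3 and 14.3 CPM against 81.1 and 78.8 CPM, 5.79-fold higher (log2 fold change 2.53, SE 0.06). Tlr2, a receptor for bacterial lipoproteins, stood at 32.8 and 31.4 CPM against 176 and 187 CPM, and its partner Tlr1 at 1.13 and 0.932 CPM against 7.67 and 6.69 CPM. The lectin receptor gene Clec4d stood at 21.8 and 21.2 CPM against 129 and 126 CPM. The endosomal receptors Tlr7 (log2 fold change 2.12), Tlr8 (2.25) and Tlr13 (2.03) were called higher, while Tlr3 (0.04, adjusted p = 0.902), Tlr9 (0.45) and Tlr4 (0.57) were not.

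Of 18 chemoattractant receptors 11 were called higher and 2 lower, with a median of 1.36. The formyl peptide receptors Fpr2, at 0.597 and 0.559 CPM against 9.41 and 10.5 CPM, and Fpr1, at 0.199 and 0.373 CPM against 3.84 and 3.39 CPM, and the complement receptors C5ar1, at 2.06 and 2.98 CPM against 20.02 and 18.97 CPM, and C3ar1, at 12.5 and 11.6 CPM against 74.1 and 74.01 CPM, had the highest folds. Ccr3 was at 3 counts or fewer in both wild-type libraries and was at least 3.24-fold higher with R35A against the floor. Cxcr4, which holds precursor B cells in the marrow, was called lower at 146 and 148 CPM against 98.3 and 93.2 CPM (log2 fold change −0.62), as was Ccr7 at 2.52 and 3.67 CPM against 1.86 and 1.98 CPM. Of these 2 lower calls 1 was lost without wild-type replicate 2, 1 without R35A replicate 1 and both without R35A replicate 2.

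Of the 15 tested scavenger and clearance receptors 8 were called higher and 0 lower, with a median of 1.21. Stab1, a scavenger receptor gene of tissue macrophages and sinus endothelium, stood at 15.6 and 16.2 CPM against 132 and 135 CPM, 8.42-fold higher. Gpnmb stood at 326 and 336 CPM against 1440.4 and 1456 CPM, Msr1 at 19.3 and 16.5 CPM against 75.8 and 78.2 CPM and Adgre1, which encodes the macrophage marker F4/80, at 20.6 and 21.3 CPM against 90.4 and 88.9 CPM. Havcr2, which encodes TIM-3, stood at 11.9 and 13.98 CPM against 28.3 and 31.4 CPM (log2 fold change 1.21, SE 0.091). Lrp1 (log2 fold change 0.10) and Axl (0.15), which fibroblasts express too, were not called.

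**Figure D2:**
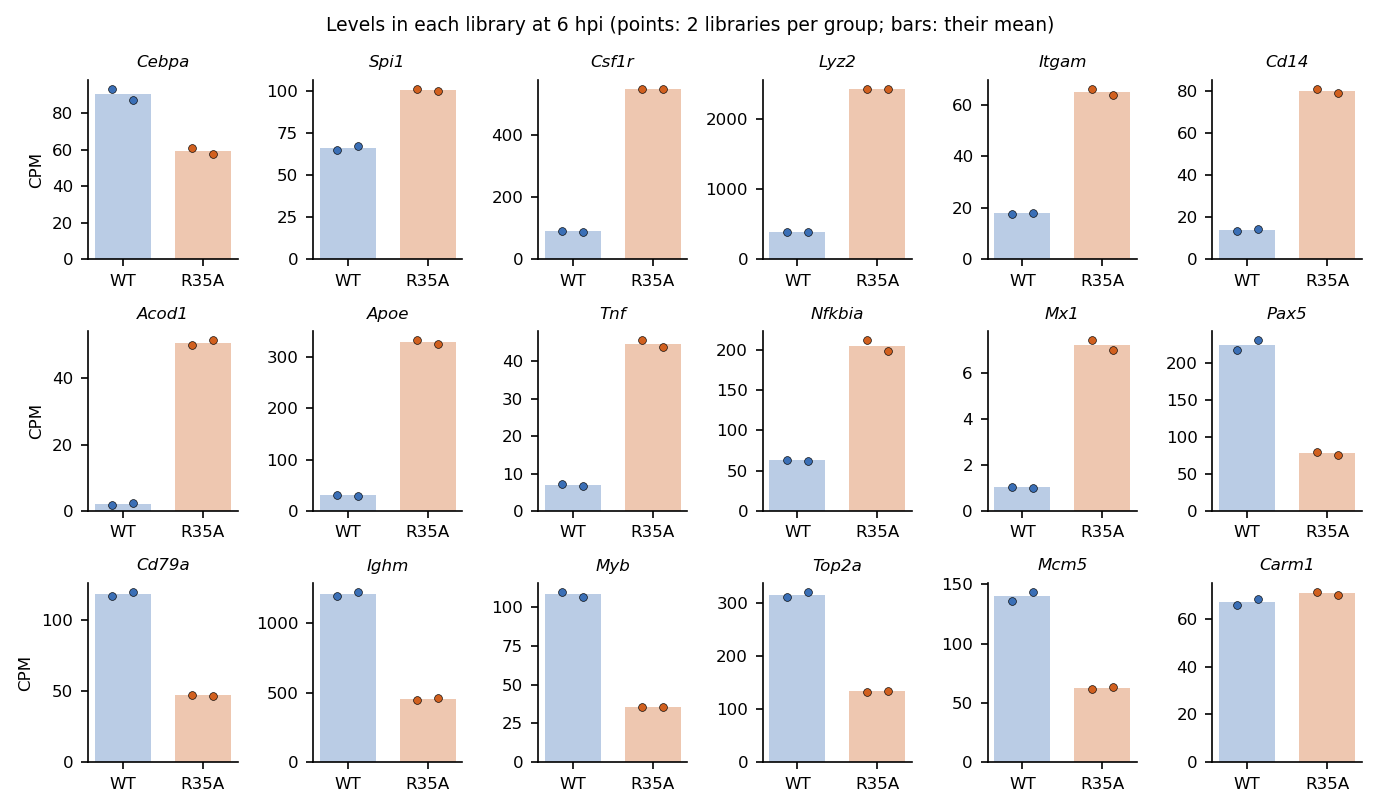
Level in CPM (vertical axis, from 0) of 18 genes in each library at 6 hpi, with points for the 2 wild-type (blue) and 2 R35A (orange) libraries and bars for their means. In the panels from Spi1 to Mx1 both R35A points lie above both wild-type points, in those of Cebpa and from Pax5 to Mcm5 both lie below, and the Carm1 panel shows nearly equal bars.

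The enzymes of the phagosome and lysosome followed. Of the 7 phagocyte oxidase genes 5 were called higher and 0 lower, with a median of 0.82. Cybb, the catalytic subunit gene, stood at 177 and 178 CPM against 422 and 423 CPM (log2 fold change 1.25, SE 0.037), and Cyba, its membrane partner gene, at 88.3 and 93.5 CPM against 157 and 163 CPM. The cytosolic partner genes Ncf4, at 15.2 and 13.7 CPM against 43.2 and 49.6 CPM, and Ncf1, at 28.05 and 28.96 CPM against 56.3 and 54.6 CPM, were called too. The small GTPase gene Rac2 was not called (log2 fold change −0.47). Of 24 lysosomal genes 12 were called higher and 0 lower, with a median of 0.60. Ctss stood at 78.2 and 75.2 CPM against 369 and 358 CPM, Lgmn at 116 and 121 CPM against 284 and 284 CPM and Ctsh at 31.6 and 36.5 CPM against 78.5 and 80.6 CPM. These are endosomal proteases known from antigen-presenting cells. Psap, a broadly expressed lysosomal gene, was 2.003-fold higher, at 1709 and 1701 CPM against 3413 and 3417 CPM.

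Lysozyme and granule genes split. Lyz2 stood at 386 and 385 CPM in wild-type cells and 2434 and 2439 CPM in R35A cells, 6.32-fold higher (log2 fold change 2.66, SE 0.032, adjusted p = 5.90e-49), and Lyz1 at 0.199 and 0.249 CPM against 1.86 and 2.12 CPM. Lyz1 and Lyz2 are near-identical copies, so that reads could be assigned to the wrong one, and Lyz1 is reported as uncertain. S100a8 stood at 0.796 and 0.746 CPM against 3.84 and 3.86 CPM. The neutrophil granule genes Mpo, Elane and Ltf were close to the floor and not called. Ctsg was at 10 and 7 counts in wild-type cells and at 0 counts in both R35A libraries, at least 3.42-fold lower with R35A against the floor of 3 counts per library, and it was not called by the DESeq2 Wald test or with only the compared groups fitted. Of the 15 members 4 were called higher and 1 lower, with a median of −0.09.

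Most chemokine genes were higher with R35A. Of 18 tested chemokine genes 14 were called higher and 1 lower, with a median log2 fold change of 1.83, the highest median of the 31 lists. The neutrophil attractants Cxcl2, at 7.56 and 7.39 CPM against 74.4 and 73.7 CPM, and Cxcl3, at 1.39 and 0.8699 CPM against 13.7 and 11.8 CPM, were among the 12 highest genes, and Cxcl16 stood at 7.43 and 8.82 CPM against 49.4 and 48.1 CPM. Ccl2, the main monocyte attractant gene, stood at 45.8 and 45.98 CPM against 171 and 179.5 CPM (log2 fold change 1.94, SE 0.048). Ccl22 was the called lower member (log2 fold change −0.60) and lost its call by the DESeq2 Wald test, without wild-type replicate 1 and without R35A replicate 2. Of 21 cytokine and inflammatory enzyme genes 13 were called higher and 0 lower, with a median of 0.87. Tnf stood at 7.29 and 6.59 CPM against 45.7 and 43.8 CPM, 6.45-fold higher (log2 fold change 2.69, SE 0.08), Il1b at 4.31 and 3.73 CPM against 12.5 and 13.3 CPM, Il1a at 0.862 and 0.621 CPM against 2.88 and 2.54 CPM and Arg1, the arginase gene, at 1.26 and 0.932 CPM against 5.99 and 6.73 CPM. Nos2 stood at 0.199 and 0.249 CPM against 0.479 and 0.0942 CPM and did not pass the test (adjusted p = 0.85). Ptgs2, the inducible cyclooxygenase gene, and Hmox1, the heme oxygenase gene, were not called (log2 fold changes −0.09 and 0.45).

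NF-kB is the transcription factor that many of these genes answer to. Of 13 genes of its subunits and inhibitors 8 were called higher and 0 lower, with a median of 0.72. Nfkbia, which encodes the inhibitor IκBα, stood at 63.3 and 61.8 CPM against 212 and 198 CPM, 3.27-fold higher (log2 fold change 1.71, SE 0.046), and Tnfaip3, which encodes A20, at 55.2 and 54.1 CPM against 152 and 150.5 CPM. Nfkb2 stood at 60.5 and 64.6 CPM against 144 and 144 CPM, Relb at 35.1 and 35.7 CPM against 66.4 and 67.3 CPM and Bcl3 at 8.36 and 8.202 CPM against 16.6 and 19.1 CPM. Rela (log2 fold change 0.39), Nfkb1 (0.23) and Rel (−0.03, adjusted p = 0.643), the subunits of the classical pathway, were not called.

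Most interferon-stimulated genes were higher with R35A. Of 23 tested 16 were called higher and 0 lower, with a median log2 fold change of 1.06. Mx1 stood at 1.06 and 0.994 CPM against 7.43 and 7.02 CPM, 7.03-fold higher, Rsad2 at 1.86 and 1.55 CPM against 6.77 and 7.86 CPM, Oasl2 at 1.46 and 1.24 CPM against 5.45 and 6.26 CPM and Ifit1 at 1.06 and 2.17 CPM against 5.81 and 6.403 CPM. These encode antiviral effectors. Stat2 (log2 fold change 0.02, adjusted p = 0.86), a transcription factor of the response, did not pass the test, and Irf7 did, at 3.58 and 3.604 CPM against 9.17 and 8.24 CPM.

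**Figure D3:**
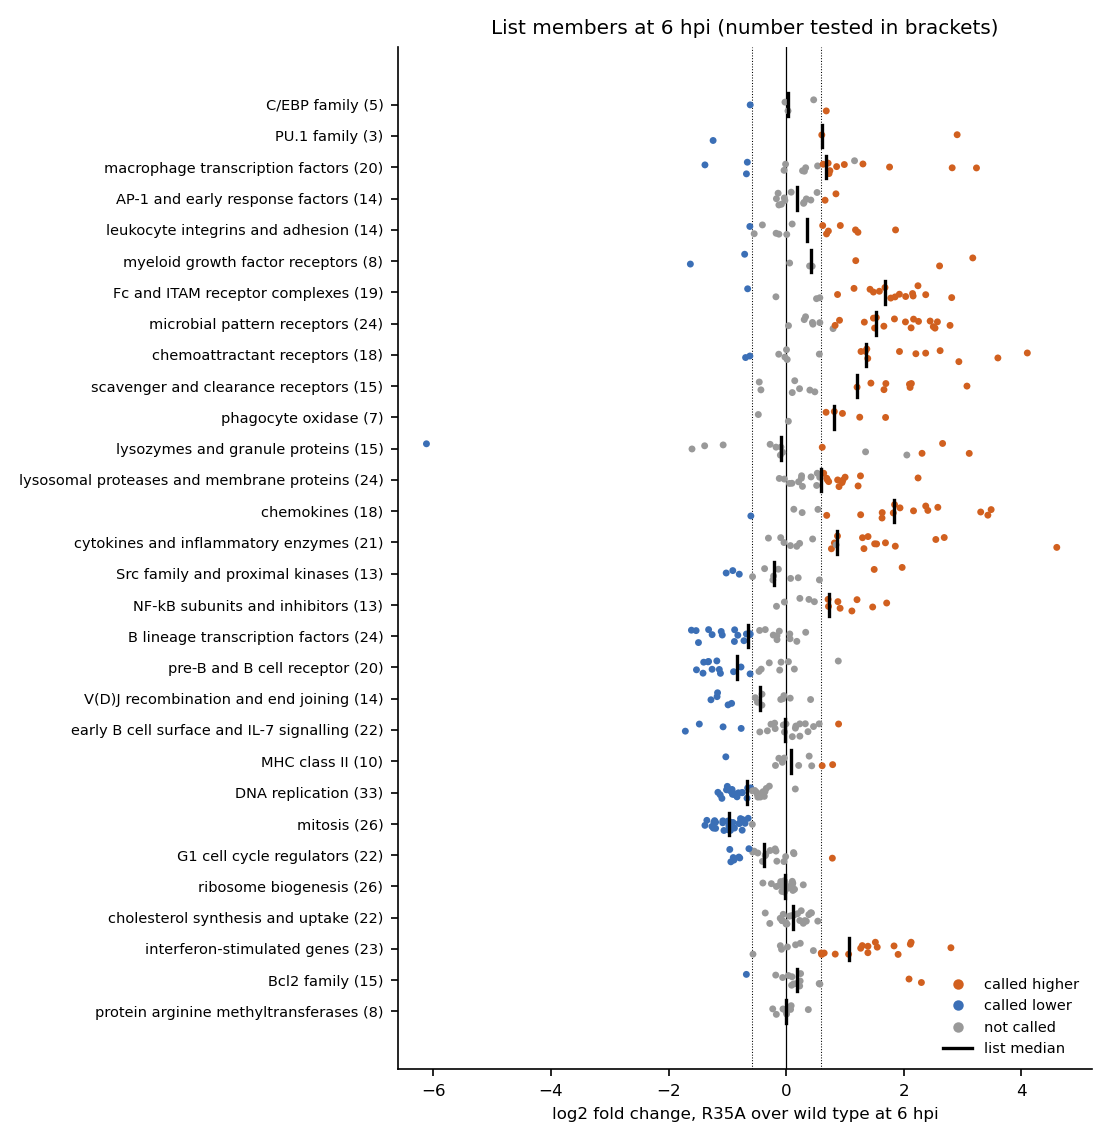
Log2 fold change of R35A over wild type at 6 hpi (horizontal axis) for each tested member of 30 gene lists (rows, with the number tested), in orange for called higher, blue for called lower and grey for not called; black ticks are list medians and dotted lines the 1.5-fold thresholds. Fc and ITAM receptors, pattern receptors and chemokines have medians of 1.68, 1.52 and 1.83, the mitosis list −0.98, and ribosome biogenesis −0.02.

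B cell genes were lower in some lists and not in others. Of 24 B lineage transcription factors 14 were called lower and 0 higher, with a median log2 fold change of −0.65. Pax5, which holds B cell identity, stood at 217 and 230.4 CPM in wild-type cells and 79.2 and 75.8 CPM in R35A cells, 2.89-fold lower (log2 fold change −1.53, SE 0.043, adjusted p = 9.88e-34). Ebf1, its partner in B cell specification, stood at 135 and 138 CPM against 66.2 and 60.8 CPM (log2 fold change −1.10, SE 0.042). Myb was the most lowered member, at 109.7 and 106 CPM against 35.4 and 35.3 CPM (log2 fold change −1.61, SE 0.048), followed by Pax5 and by Pou2af1, at 140.0 and 138 CPM against 49.02 and 49.6 CPM. Lef1 stood at 55.4 and 59.8 CPM against 23.2 and 23.02 CPM. Foxo1 (log2 fold change −0.45) and Ets1 (−0.36) lay under the fold threshold, and Sox4 (0.06, adjusted p = 0.253) and Bcl6 (0.07, adjusted p = 0.476) did not pass the test.

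Of the 20 genes of the pre-B and B cell receptor 12 were called lower and 0 higher, with a median of −0.83. Igll1, which with Vpreb1 encodes the surrogate light chain of the pre-B cell receptor, stood at 302 and 300.4 CPM against 101 and 108 CPM, 2.88-fold lower. Ighm, the immunoglobulin μ heavy chain gene, stood at 1199 and 1229 CPM against 451 and 460.1 CPM (log2 fold change −1.41, SE 0.035, adjusted p = 5.13e-36). Cd79a stood at 117 and 120.4 CPM against 47.4 and 47.1 CPM. Downstream of the receptor, Blnk (log2 fold change −1.12) and Prkcb (−1.18) were called lower, while Plcg2 (−0.29) lay under the fold threshold and Cd22 (−0.09, adjusted p = 0.675) did not pass the test. Of the 95 tested immunoglobulin V, D and J segments 32 were called lower and 2 higher, where 7.52% of all genes tested were called lower and 6.2% higher.

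Of 14 recombination and end joining genes 5 were called lower and 0 higher, with a median of −0.45. Rag2, a subunit of the recombinase, stood at 5.04 and 4.47 CPM against 2.098 and 1.84 CPM (log2 fold change −1.28, SE 0.19), and Dntt, which encodes terminal transferase, at 20.4 and 21.1 CPM against 9.71 and 8.76 CPM. Rag1 lay just under the fold threshold at 10.6 and 9.76 CPM against 6.83 and 7.25 CPM (log2 fold change −0.53). Dclre1c, which encodes the Artemis nuclease, stood at 73.2 and 65.4 CPM against 34.9 and 34.9 CPM.

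Most early B cell surface and IL-7 signalling genes were not called at 6 hpi. Of 22 tested 4 were called lower and 1 higher, with a median of −0.02. The share called lower was above the 7.52% of all genes tested, and the share called higher was below the 6.2% of all genes tested. The lower members were Enpep, at 40.7 and 41.4 CPM against 13.4 and 11.8 CPM, Spn, which encodes CD43, at 108 and 110.0 CPM against 40.5 and 38.2 CPM, Stat5b, at 132 and 134 CPM against 61.4 and 64.7 CPM, and Cd2 (log2 fold change −0.77). Il2rg, the common γ chain gene that phagocytes express too, was the higher one (without wild-type replicate 1 there were 2), at 12.1 and 10.4 CPM against 21.2 and 20.6 CPM. Il7r stood at 44.9 and 42.9 CPM against 65.3 and 64.1 CPM and was not called (log2 fold change 0.56). Of the 10 MHC class II genes H2-DMa and H2-DMb1 were called higher and H2-Ob lower, with a median of 0.09, and the calls of H2-DMa and H2-DMb1 were each lost without one of the wild-type libraries. The genes that form the class II molecules themselves, H2-Aa, H2-Ab1 and H2-Eb1, had log2 fold changes of −0.03, −0.12 and −0.18 and did not pass the test.

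Signalling kinases of both lineages went apart. Of 13 Src family and proximal kinase and phosphatase genes 2 were called higher and 3 lower, with a median of −0.21. Fgr, a Src family member of phagocytes, was higher, at 9.81 and 9.63 CPM against 37.4 and 38.8 CPM. Lck, at 5.11 and 5.28 CPM against 2.697 and 2.45 CPM, Btk, at 63.3 and 66.6 CPM against 36.02 and 33.4 CPM, and Inpp5d (log2 fold change −0.80) were lower. Syk (−0.21) and Lyn (−0.23), which serve both lineages, were not called.

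Most mitosis and replication genes were lower with R35A. Of 26 mitosis genes 25 were called lower and 0 higher, with a median log2 fold change of −0.98. Cenpf stood at 62.7 and 62.1 CPM against 21.9 and 25.6 CPM, Kif11 at 111 and 119 CPM against 43.4 and 46.7 CPM and Bub1b at 84.9 and 82.6 CPM against 32.8 and 36.7 CPM. Top2a, the topoisomerase of dividing cells, stood at 310.1 and 321 CPM against 133 and 135 CPM, 2.36-fold lower (log2 fold change −1.24, SE 0.04, adjusted p = 7.71e-31). Mki67, the proliferation marker, stood at 566 and 573 CPM against 242 and 244 CPM. Aurka was the member without a call (log2 fold change −0.58, just under the threshold).

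Of 33 replication genes 20 were called lower and 0 higher, with a median of −0.67. Mcm5, a subunit of the replicative helicase, stood at 136 and 144 CPM against 61.97 and 63.2 CPM, Mcm3 at 124 and 126 CPM against 62.7 and 61.2 CPM, Prim1, a primase gene, at 30.1 and 30.6 CPM against 14.02 and 13.9 CPM and Pole at 55.4 and 56.9 CPM against 25.4 and 27.1 CPM. Pcna (log2 fold change −0.48), Rrm2 (−0.34) and Tyms (−0.53) lay under the fold threshold. Among 22 regulators of G1, 7 were called lower and 1 higher, with a median of −0.38. Cdkn2d, an inhibitor of Cdk4, stood at 28.5 and 34.3 CPM against 17.7 and 14.9 CPM, E2f2 at 65.3 and 69.1 CPM against 34.5 and 35.5 CPM, Rbl1 at 40.9 and 44.1 CPM against 22.1 and 23.4 CPM and Mycn at 4.44 and 4.16 CPM against 2.16 and 2.45 CPM. Myc was the higher member, at 42.5 and 42.8 CPM against 72.8 and 74.2 CPM (log2 fold change 0.79, SE 0.052), while Cdkn1a, the p21 gene, lay at 1797 and 1807 CPM against 1982 and 1969 CPM with no call.

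3 lists held no call. Of the 8 tested protein arginine methyltransferase genes, which include Carm1, 0 were called in either direction, with a median log2 fold change of 0.00. For ribosome biogenesis 0 of 26 and for cholesterol synthesis and uptake 0 of 22 genes were called in either direction, with medians of −0.02 and 0.11. Members ranged from −0.40 to 0.29 for ribosome biogenesis and from −0.36 to 0.54 for cholesterol. Differences under 1.5-fold did pass the adjusted p in some of these genes, Gnl3 (log2 fold change 0.29, adjusted p = 3.79e-09) and Sqle (0.34, adjusted p = 3.93e-08) among them. In the Bcl2 family 2 of 15 tested genes were called higher (13.3%) and 1 lower (6.67%), with a median of 0.18. Over all genes tested 6.2% were called higher and 7.52% lower. Bcl2a1b stood at 0.398 and 0.311 CPM against 1.98 and 1.601 CPM and Bcl2a1d at 0.0663 and 0.311 CPM against 0.959 and 0.753 CPM, but the Bcl2a1 genes are near-identical copies, so which of them moved is uncertain, and Bcl2a1d lost its call without wild-type replicate 1. Bmf, a proapoptotic member, stood at 45.4 and 47.9 CPM against 28.8 and 29.5 CPM.

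The study itself names genes of the 2 lineages from these samples, so their direction is not independent of the data. Its methods list further signature genes, many of them described above. Among these Rag1 and Foxo1 were not called here and Blk was not called lower. Not all of the others are reported here. 10 genes that its results name were taken as a list. Of these 10, 5 were called higher, among them Csf1r, Lyz2 and Itgam, and 5 lower, among them Pax5, Ebf1 and Rag2. Cyfip2, another called lower member, stood at 412 and 424 CPM against 177 and 174 CPM, 2.38-fold lower (log2 fold change −1.25, SE 0.036).

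The lowest genes were of 2 kinds. 5 of the 12 with the lowest fold, n-R5-8s1, CT010467.1, Mir6236, Rn7sk and Lars2, rested on wild-type replicate 1 alone. CT010467.1, which is known to collect reads of ribosomal RNA, stood at 7093 and 195 CPM in the wild-type libraries and 119.7 and 144 CPM in the R35A libraries, and Lars2 at 1506 and 72.9 CPM against 54.2 and 58.2 CPM. Without wild-type replicate 1 their log2 fold changes shrank from −4.78 to −0.56 and from −3.80 to −0.37, and all 5 lost their calls, n-R5-8s1 at −0.59, Mir6236 at −0.45 and Rn7sk at −0.37. The called difference of these 5 was thus carried by 1 library.

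The other 7 were Atp2b2, Ipcef1, P2rx3, Baiap3, Pydc3, Dnajc6 and Rpl3l, in which both wild-type libraries lay close together. Atp2b2, a plasma membrane calcium pump gene at chr6:113743831-114042613, minus strand (mm10), stood at 12.9 and 12.6 CPM against 3.12 and 2.26 CPM, 4.74-fold lower with R35A (log2 fold change −2.27, SE 0.15, adjusted p = 1.43e-18). Ipcef1 stood at 139 and 131 CPM against 28.4 and 30.7 CPM (log2 fold change −2.19, SE 0.062). P2rx3, an ATP-gated ion channel gene, stood at 9.35 and 10.4 CPM against 2.098 and 2.26 CPM. Pydc3 stood at 10.7 and 11.1 CPM against 2.94 and 2.92 CPM, Dnajc6 at 15.5 and 17.1 CPM against 4.26 and 4.57 CPM, Baiap3 at 7.69 and 9.196 CPM against 1.98 and 2.26 CPM and Rpl3l at 8.22 and 8.202 CPM against 1.98 and 2.45 CPM. The next 5 genes in this order, added after their values were seen, were Cecr2, Ubash3a, Smtnl2, Adgrg1 and Htra3. Of these Cecr2, a chromatin remodelling factor gene, stood at 346 and 350.2 CPM against 98.3 and 96.00 CPM, and Adgrg1, an adhesion receptor gene, at 306 and 312 CPM against 87.3 and 87.1 CPM. Only 7 of the 12 lowest genes had a promoter window.

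To see which differences arose after induction, the change from 0 to 6 hpi was compared between the constructs. In wild-type cells 5067 genes were called between 0 and 6 hpi (29.8%), 2566 higher and 2501 lower, and in R35A cells 6403 (37.7%), 3146 higher and 3257 lower. The change itself differed between the constructs for 1742 genes (10.3%), 724 with a more positive change in R35A cells (4.26%) and 1018 with a more negative one (5.99%). This test shares its 6 hpi libraries with the direct comparison. Csf1r rose from a mean of 7.69 ± 0.112 CPM to 89.8 ± 3.63 CPM (SD, n = 2) in wild-type cells and from 6.15 ± 0.389 CPM to 547 ± 1.08 CPM in R35A cells, a difference in change of 2.92 on the log2 scale (SE 0.11). Acod1 rose from 0.143 CPM to 2.08 CPM with wild type and from 0.0272 CPM to 50.7 CPM with R35A. Pax5 fell from 879 ± 5.498 CPM to 224 ± 9.31 CPM with wild type and from 814 ± 1.48 CPM to 77.5 ± 2.35 CPM with R35A, a difference of −1.42 (SE 0.056). Both constructs thus moved these 3 genes the same way, R35A by more.

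Some of the called lower genes followed another course. Atp2b2 rose in wild-type cells from 2.82 to 12.7 CPM and stood at 2.23 and 2.69 CPM in R35A cells. Ipcef1 rose from 51.4 to 135 CPM with wild type and fell from 49.9 to 29.6 CPM with R35A (log2 fold changes from 0 to 6 hpi of 1.39 and −0.75). Kit, the progenitor receptor, rose from 18.9 to 38.4 CPM with wild type and stood at 17.4 and 12.4 CPM with R35A. Cecr2 was at 358 and 348 CPM with wild type and fell from 338 to 97.1 CPM with R35A. The difference in change from 0 hpi passed the test in Atp2b2 (−1.94, SE 0.28), Ipcef1 (−2.14, SE 0.092), Kit (−1.51, SE 0.13) and Cecr2 (−1.76, SE 0.051). By list, the mitosis genes had 24 of 26 with a more negative change in R35A cells, B lineage transcription factors 12 of 24, replication genes 15 of 33, and pattern receptors 17 of 24 with a more positive one.

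**Figure D4:**
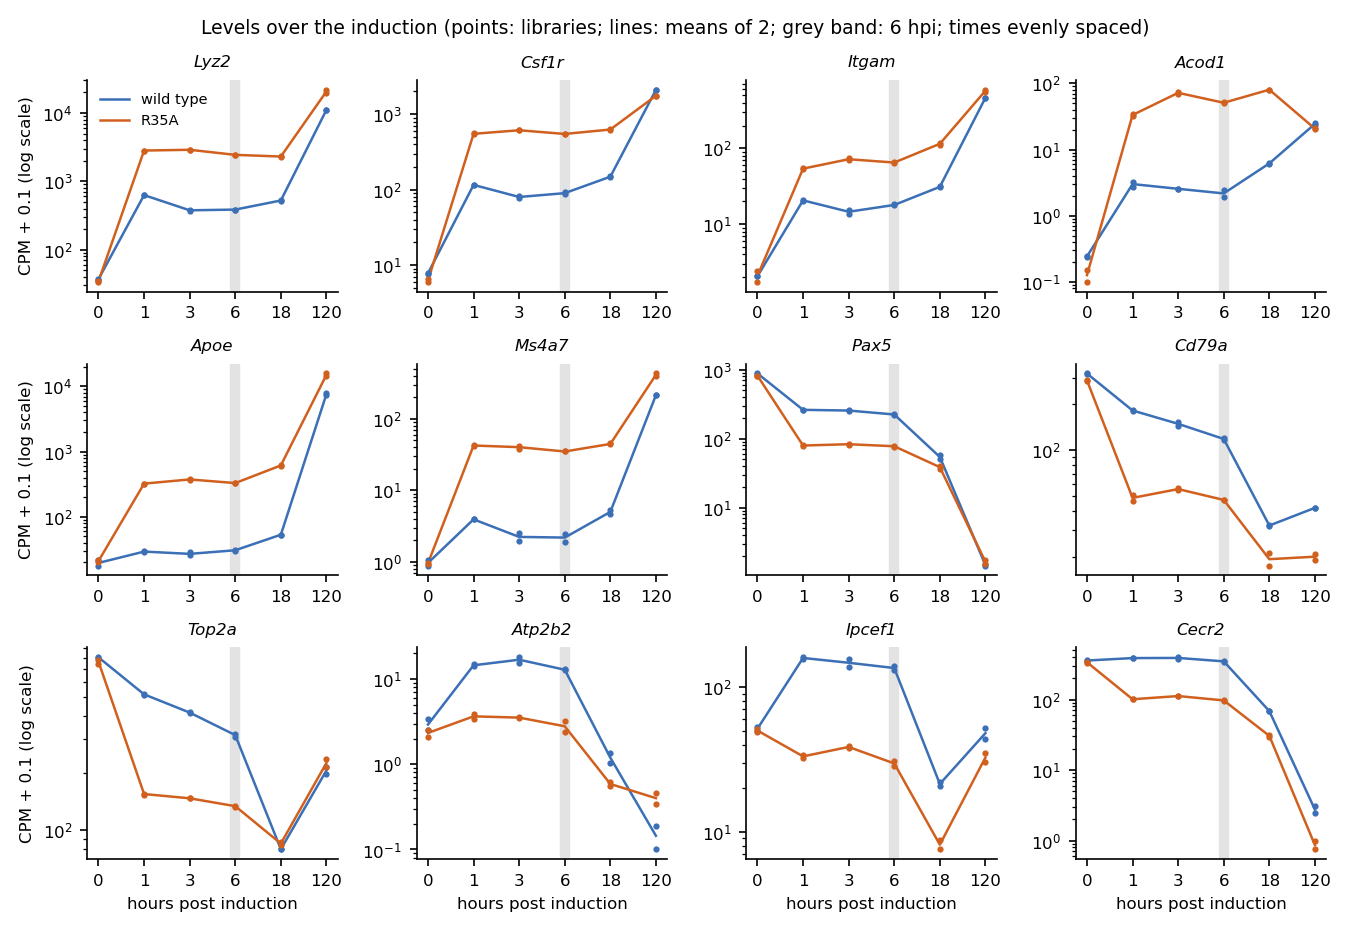
Level of 12 genes as CPM + 0.1 on a log scale (vertical axis) at 6 timepoints from 0 to 120 hpi (horizontal axis, evenly spaced), in wild-type (blue) and R35A cells (orange), with points for libraries, lines through the means of 2 and a grey band at 6 hpi. From Lyz2 to Ms4a7 the R35A line lies above at 6 hpi, in the other panels it lies below, and Ipcef1 rises from 0 to 6 hpi with wild type alone.

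The gap between the constructs, that is the log2 fold change of R35A over wild type at one timepoint, was then set against the gap at 3 hpi. At 3 hpi 2886 genes were called (17%), with 7.95% of all genes higher and 9.04% lower. The corresponding counts were 3285 at 1 hpi (19.3%, with 8.51% higher and 10.8% lower), 1711 at 18 hpi (10.1%, with 6.9% higher and 3.17% lower) and 3187 at 120 hpi (18.8%, with 12.4% higher and 6.38% lower), against 2331 at 6 hpi. The gap itself changed between 3 and 6 hpi for 99 genes (0.583%), 32 upward (0.188%) and 67 downward (0.394%). The DESeq2 Wald test called 51, of which 9.8% moved upward against 32.3% here. Without wild-type replicate 1 of 6 hpi the count was 65, with 40 downward. It was 43 downward without wild-type replicate 2 of 3 hpi, 42 downward without R35A replicate 1 of 6 hpi and 13 upward without R35A replicate 2 of 6 hpi. Among genes of at least 5 CPM in a group the most upward were Agtr2, Gldc, Enpep and Cdca5, whose gap moved by 0.96, 0.95, 0.77 and 0.75. Gldc, which encodes the glycine decarboxylase, went in wild-type cells from a mean of 64.6 CPM at 3 hpi to 28.03 CPM at 6 hpi, and in R35A cells from 11.3 to 9.46 CPM. Enpep went from 80.5 to 41.1 CPM with wild type and stood at 14.3 and 12.6 CPM with R35A. In both genes the gap narrowed while the wild-type level came closer to that of R35A cells.

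For some inflammatory genes the gap was smaller at 6 than at 3 hpi. Tnf stood at 5.83 and 6.94 CPM in wild-type cells and went from 86.7 to 44.8 CPM in R35A cells, which moved the gap by −1.21 (SE 0.14, adjusted p = 1.36e-08). The gap of Il1b (−1.16), Ccl3 (−0.97), Ccl4 (−1.01) and Cxcl2 (−0.59) narrowed too. Of 18 chemokine genes 4 and of 21 cytokine and inflammatory enzyme genes 2 had a narrower gap and 0 a wider one. Over all genes tested the gap moved downward in 0.394% and upward in 0.188%. The mitosis list had 0 of 26 calls between 3 and 6 hpi, near the share of 0.583% over all genes tested. Its median change of the gap was 0.20. The most downward genes of at least 5 CPM in a group, CT010467.1, Mir6236, Lars2 and mt-Rnr1, rested on wild-type replicate 1 of 6 hpi.

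Between 6 and 18 hpi the gap changed for 1435 genes (8.45%), 1099 upward (6.47%) and 336 downward (1.98%). 76.6% of these moved upward with TMM and 64.7% with the size factors of DESeq2. The summed feeder markers went over the same time from 17483.3 and 18022.3 CPM to 21094.1 and 20617.3 CPM with wild type, and from 14020.9 and 14089.2 CPM to 14047.8 and 14146.3 CPM with R35A. Their part in these changes was not tested. All 26 mitosis genes were called upward, with a median change of 0.99, as were 22 of 33 replication genes (0.66), 16 of 20 genes of the pre-B and B cell receptor (0.75) and 12 of 24 B lineage transcription factors (0.56). At 18 hpi 0 mitosis and 0 replication genes were called between the constructs, where 10.1% of all genes tested were. Of the 22 early B cell surface and IL-7 signalling genes 10 were called upward and 0 downward, and here the median log2 fold change of R35A over wild type went from −0.02 at 6 hpi to 0.40 at 18 hpi, where 10 were called higher and 1 lower. Top2a went in wild-type cells from 316 ± 7.899 CPM at 6 hpi to 79.6 ± 0.387 CPM at 18 hpi (SD, n = 2), and in R35A cells from 134 ± 0.982 to 85.2 ± 1.63 CPM, so that both groups were nearly level at 18 hpi. Pax5 went from 224 to 54.2 CPM with wild type and from 77.5 to 38.6 CPM with R35A, and its gap moved by 1.03 (SE 0.069).

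The receptor lists had small median changes between these times. Of 24 pattern receptors 3 were called upward (12.5%) and 0 downward between 6 and 18 hpi, with a median of 0.06. Of 19 Fc and ITAM receptors 3 were called upward (15.8%) and 0 downward, with a median of 0.03. Over all genes tested 6.47% were called upward and 1.98% downward. Both lists stayed higher with R35A at 18 hpi, with 19 of 24 and 18 of 19 genes called higher, where 6.9% of all genes were. Spi1 was 66.3 CPM at 6 hpi and 44.2 CPM at 18 hpi with wild type and 101 and 115 CPM with R35A, so that its gap widened by 0.78 (SE 0.071). Cebpa changed its order, from 90.4 against 59.2 CPM at 6 hpi to 39.6 against 53.3 CPM at 18 hpi, where the difference was under the fold threshold. Csf1r went with wild type from 89.8 to 149 CPM and its gap moved by −0.53 (SE 0.05), which is under the fold threshold. Outside the structural RNA genes, Gldc had the most upward gap (2.28) among genes of at least 5 CPM in a group, and Prtn3, Hspa1a, Upk3b and Klrg2 the most downward (−1.81, −1.44, −1.40 and −1.33).

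**Figure D5:**
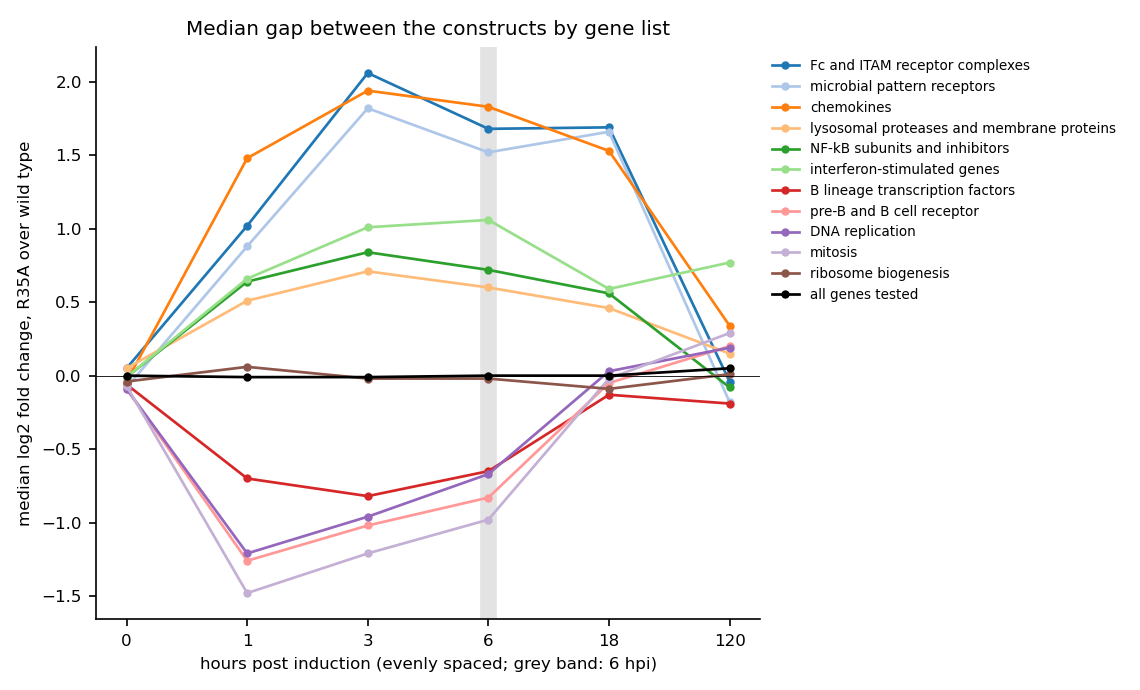
Median log2 fold change of R35A over wild type (vertical axis) at 6 timepoints from 0 to 120 hpi (horizontal axis, evenly spaced) for 11 gene lists and, in black, all genes tested; the grey band marks 6 hpi. The medians of the Fc and ITAM receptors, pattern receptors and chemokines are above 1.5 from 3 to 18 hpi, and the mitosis, replication and pre-B receptor medians go from −0.98, −0.67 and −0.83 at 6 hpi to −0.02, 0.03 and −0.05 at 18 hpi.

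R35A cells at 6 hpi were last set against wild-type cells at 18 hpi, to ask how far the mutant had come compared with the later wild type. 1618 genes were called (9.52%), 1182 higher (6.96%) and 436 lower (2.57%) in R35A cells at 6 hpi. 73.1% of them were higher with TMM and 65.6% with the size factors of DESeq2. The summed feeder markers stood at 14020.9 and 14089.2 CPM in these R35A libraries and at 21094.1 and 20617.3 CPM in the wild-type libraries of 18 hpi, and their part in this comparison was not tested. Pattern receptors had 18 of 24 genes called higher and 0 lower, Fc and ITAM receptors 14 of 19 and 0, chemokines 12 of 18 and 0, and interferon-stimulated genes 15 of 23 and 0. Lyz2 was at 2437 ± 3.73 CPM in R35A cells at 6 hpi and at 524 ± 1.73 CPM in wild-type cells at 18 hpi (SD, n = 2; log2 fold change 2.22, SE 0.032). Csf1r was at 547 ± 1.08 against 149 ± 3.08 CPM (1.88, SE 0.035). All of the 12 highest genes of 6 hpi were called higher in this comparison too, which shares the R35A libraries with it. Among genes of at least 5 CPM the highest were Saa3, Fcrls, Ms4a14 and Cx3cr1, with log2 fold changes of 4.12, 3.35, 3.31 and 3.2. Saa3, an acute phase gene, was at 1.302 and 0.651 CPM in wild-type cells at 18 hpi and at 16.00 and 17.6 CPM in R35A cells at 6 hpi.

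The B cell, mitosis and replication lists held no gene that was called lower than in wild-type cells at 18 hpi. Over all genes tested 6.96% were called higher and 2.57% lower, so that 0 lower calls in lists of this size lie near that share. Among the 22 regulators of G1, 2 were called higher and 3 lower. Of 20 genes of the pre-B and B cell receptor 11 were called higher and 0 lower in R35A cells at 6 hpi, of 26 mitosis genes 15 and 0, of 33 replication genes 8 and 0, and of 24 B lineage transcription factors 5 and 0. Pou2af1 was at 49.3 CPM in R35A cells at 6 hpi and at 24.3 CPM in wild-type cells at 18 hpi (log2 fold change 1.02, SE 0.052). Pax5 was at 77.5 against 54.2 CPM (0.51, under the fold threshold), and Myb at 35.3 against 30.4 CPM (0.22, likewise). The genes that were lower in R35A cells at 6 hpi were led by Prtn3, which encodes proteinase 3 of granulocyte precursors, at 0.899 and 0.612 CPM against 15.6 and 13.7 CPM (log2 fold change −4.29, SE 0.2), followed by Sprr2k (−2.40), Myom1 (−1.79) and Prkg1 (−1.63).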

How the data were processed

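Bone marrow B cells with wild-type or R35A C/EBPα were sequenced as poly(A) RNA (stranded kit, single-end reads). Reads were aligned to mm10 by the authors with STAR 2.5.0a, which also counted reads per gene, and the deposited values are raw counts. The gene annotation release and the strand setting are not given in the sources used here. Symbols were matched to GENCODE vM21 for position (39171 of 40354, 97.07%), and columns of R35K libraries were not used here.

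Groups came from the labels. The 24 wild-type and R35A libraries of 0 to 120 hpi (12 groups, 2 biological replicates each) were fitted in 1 model with edgeR 4.0.16 (R 4.3.3), its default filter on low counts, TMM normalization, and quasi-likelihood tests with Benjamini-Hochberg adjustment over 16988 genes. Calls needed a 1.5-fold difference and an adjusted p of at most 0.05. With 2 libraries a group, an exact permutation test of a single gene could not reach 0.05, so that all p-values come from this model, and they cover the spread between replicates as labelled. Standard errors are those of the fitted log2 fold changes. Library totals of the compared groups were 14657990 to 20580185 counts at 6 hpi, and floors cover counting error only. The same replicate numbers did not pair the libraries (median correlation of deviations −0.0072 over 66 group pairs, 2 of them over 0.1), so no block was used. Over all genes no 2 libraries of a group were alike within counting noise, but for the median gene at 6 hpi their spread came close to it. The median ratio of squared deviations to those of counting alone was 1.25 in wild-type and 1.094 in R35A cells. The mean ratio was 17.47 in wild-type cells, the highest of the 12 groups, and 1.13 in R35A cells. The p-values rest on a spread that was small for the median gene. How independent the replicates were cannot be told from these counts. The script was tested on simulated data.

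The members and gene lists were chosen with earlier results of these data known. Named genes are the 12 highest and 12 lowest called genes with non-overlapping libraries and at least 5 CPM. Predicted genes, pseudogenes and immunoglobulin segments were left out. The 4 largest called members of each list were named too, with Cebpa, Spi1, Carm1 and 10 genes that the study's results name. The 4 highest and lowest of each later comparison were added. Other list members, among them those that were not called, were picked for description after their values were seen, and some genes are not reported here. Alternatives were DESeq2 1.42.0 (Wald test, size factors), other count filters and thresholds, a fit of the compared groups only, a replicate block, and leaving out each library. Promoter windows (250 bases before to 50 after the start) came from RefSeq.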

Additional observations from a re-analysis of the deposited data

Results flagged for a closer look

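Results are given here because an effect of the construct differed between timepoints by the test of that difference. The change from 0 to 6 hpi differed between R35A and wild-type cells for 1742 genes, the gap between the constructs differed between 3 and 6 hpi for 99 genes, and it differed between 6 and 18 hpi for 1435 genes.

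From 3 to 6 hpi the gap moved upward by 0.96 on the log2 scale in Agtr2, an angiotensin receptor gene, by 0.95 in Gldc, by 0.77 in Enpep, the gene of the early B cell aminopeptidase BP-1, and by 0.75 in Cdca5, a cohesin regulator gene. It moved by −4.51 in CT010467.1, −4.36 in Mir6236, −3.53 in Lars2 and −2.05 in mt-Rnr1, the mitochondrial 12S ribosomal RNA gene. These last 4 differences rest on wild-type replicate 1 of 6 hpi, in which 1.32% of the counts lay on 8 such genes.

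From 6 to 18 hpi the gap moved by 4.98 in CT010467.1, 4.75 in Mir6236 and 3.89 in Lars2, where the same library enters with the opposite sign. It moved by 2.28 in Gldc, whose gap changed sign, from means of 28.03 CPM with wild type and 9.46 CPM with R35A at 6 hpi to 3.74 and 6.22 CPM at 18 hpi. It moved by −1.81 in Prtn3, −1.44 in Hspa1a, a heat shock gene, −1.4 in Upk3b and −1.33 in Klrg2.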

How the results depend on the processing

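The counts depended mainly on the thresholds. At 2-fold in place of 1.5-fold, 1179 genes were called at 6 hpi (550 higher, 629 lower), 861 for the difference in change from 0 hpi (389 and 472), 41 for the gap from 3 to 6 hpi (14 and 27), 562 from 6 to 18 hpi (445 and 117) and 710 against wild type at 18 hpi (562 and 148). By adjusted p alone the counts were 6868 (3418 and 3450), 4403 (1970 and 2433), 719 (336 and 383), 4416 (2396 and 2020) and 5579 (3261 and 2318) in that order, and 8 genes, all 8 higher, differed in uninduced cells. The Wald test of DESeq2 called 51 genes for the gap from 3 to 6 hpi, 5 of them upward, and 1 gene, lower, in uninduced cells. For uninduced cells there were 16 calls (7 higher, 9 lower) without a low-count filter, 5 (all 5 lower) with only the compared groups fitted and from 0 to 11 when 1 library was left out, from 0 to 11 of them higher. Leaving out 1 library gave 2106 to 2185 calls at 6 hpi and 65 to 87 for the gap from 3 to 6 hpi (13 to 25 upward and 40 to 62 downward). With the replicate block the counts were 2326, 1731, 102, 1418 and 1608 in the order above, and 1 gene (lower) was called in uninduced cells. Counts stayed within 1.5 times the reported ones in 200 recomputations and moved further in 52. Counts of list members moved by more than that in 17 recomputations, by 1 or 2 genes each, and stayed in 479. Values of single genes kept direction and call in 1267 recomputations, lost the call in 23 and reversed in 1, that of mt-Rnr1, whose gap from 3 to 6 hpi was between −2.89 and 0.10 when 1 library was left out, 0.10 without wild-type replicate 1 of 6 hpi. The cause of these changes was not tested. With 2 libraries a group the spread of a single gene is poorly known, and genes near 3 counts per library carry no measurable fold. The planned share of promoter motifs among called genes was not computed, because fewer than 80% of them had a promoter window.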
